A study of Homo sapiens with 2 samples.

Results

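Liver-enriched transcription factors are the 8 genes FOXA1, FOXA2, FOXA3, CEBPA, CEBPB, ONECUT1, ONECUT2 and PROX1, taken by name from the annotation of an Affymetrix expression array. They are 8 of 19775 genes with a value, and their 18 probe sets (groups of probes read as 1 value) are 18 of 41091 that name a single gene. No probe set named a member together with another gene. The 2 samples were cultures of Huh7, a human cell line long established from a hepatocellular carcinoma. One carried a lentiviral short hairpin RNA (shRNA) against CD24, which encodes a small glycoprotein of the cell surface, and the other a non-target control hairpin. Both were stably transduced and grown in the same serum-supplemented medium, and total RNA of each was read on 1 array. Whether the cultures were clones or pools is not given in the sources used here. The study asked which transcripts differ after CD24 knockdown.

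FOXA factors carry a forkhead domain and are known as pioneer factors, which bind closed chromatin at liver enhancers and open it. C/EBP factors are basic leucine zipper proteins: C/EBP alpha, from CEBPA, is tied to metabolic genes and growth arrest of the mature hepatocyte, and C/EBP beta, from CEBPB, to acute-phase and regenerative responses. ONECUT1, also called HNF6, and ONECUT2 carry a cut domain with a homeodomain and act in liver and bile duct development. PROX1 is a homeodomain factor of the developing hepatoblast and of lymphatic endothelium, and in hepatocytes it is known as a corepressor of bile acid synthesis.

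Sequence upstream of the gene start is shown for the members with a log2 difference 0.32 or more below 0 with CD24 shRNA that had a RefSeq promoter entry (build GRCh38.p14), so that their start regions can be compared. Of the 8 members, 6 had an entry; FOXA2 and PROX1 had none. Each run is the 250 bases before an annotated start, read 5′ to 3′ on the gene's strand, and capitals mark motif matches.
FOXA3, chr19:45864076-45864325, plus strand: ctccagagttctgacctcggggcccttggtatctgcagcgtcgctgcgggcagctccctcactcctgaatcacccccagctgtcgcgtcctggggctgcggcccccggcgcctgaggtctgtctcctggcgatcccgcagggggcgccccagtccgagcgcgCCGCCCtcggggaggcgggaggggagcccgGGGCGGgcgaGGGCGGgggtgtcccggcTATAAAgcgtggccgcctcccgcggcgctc
CEBPA, chr19:33302535-33302784, minus strand: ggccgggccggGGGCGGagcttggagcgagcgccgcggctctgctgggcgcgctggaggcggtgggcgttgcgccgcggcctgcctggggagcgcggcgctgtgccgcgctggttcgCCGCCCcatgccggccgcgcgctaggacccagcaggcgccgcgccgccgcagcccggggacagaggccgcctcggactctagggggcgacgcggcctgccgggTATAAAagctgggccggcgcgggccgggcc
CEBPB, chr20:50190333-50190582, plus strand: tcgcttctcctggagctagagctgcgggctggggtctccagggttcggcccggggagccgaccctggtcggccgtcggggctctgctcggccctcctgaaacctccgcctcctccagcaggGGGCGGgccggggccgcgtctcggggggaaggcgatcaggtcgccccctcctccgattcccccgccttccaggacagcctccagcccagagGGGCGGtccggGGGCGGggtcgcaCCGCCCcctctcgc
ONECUT1, chr15:52790337-52790586, minus strand: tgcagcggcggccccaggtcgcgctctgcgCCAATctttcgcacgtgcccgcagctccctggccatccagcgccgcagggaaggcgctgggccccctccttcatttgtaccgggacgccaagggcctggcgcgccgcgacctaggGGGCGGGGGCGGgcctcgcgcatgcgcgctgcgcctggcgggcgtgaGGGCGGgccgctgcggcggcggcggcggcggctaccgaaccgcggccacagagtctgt
The motifs searched on both strands were the TATA box TATAAA, the GC box GGGCGG, the CCAAT box CCAAT, a C/EBP core TTGCNNAA, a FOXA core TNTTTAC, an ONECUT core ATCAAT and a STAT core TTCNNNGAA. No matches overlapped in the windows of the members.

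FOXA3 and CEBPA each held a TATA box that began 30 bases before the start, a motif found in 10.7% of the 35116 RefSeq windows of this length. CEBPB had a further annotated start downstream, not printed because its window lies within the longer transcript, and there a TATA box began 29 bases before the start. All 7 member windows held a GC box, which 42.6% of all windows did, and the window of CEBPB printed above held 4. ONECUT1 held a CCAAT box 220 bases before its start, as 32.0% of all windows held one. None of the 7 windows held the C/EBP, ONECUT or STAT core, which stood in 9.05%, 5.58% and 6.57% of all windows. ONECUT2 was the only one with a FOXA core (9.58% of all windows). The 4 printed windows were between 75.2% and 81.2% G and C, against a median of 58.0% over all windows. These are matches of letters and not measured binding.

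The table holds log2 values that the submitters had centred on each probe set, so that those of the control and CD24 shRNA arrays are equal in size and opposite in sign. Given below is the log2 value with CD24 shRNA minus that of the control, where -1 means 2-fold lower. With 1 array per group no difference has a replicate check, and no p-value was computed. Errors are SDs over the probe sets of each gene and do not measure the spread between cultures. As a yardstick, probe sets of the same gene had a pooled SD of 0.27 over 10523 genes. It describes the scatter of single probe sets within a gene. It is neither the error of a difference between gene means nor the spread between cultures. CD24, the target of the hairpin, had a difference of -1.37 ± 0.38 (SD, 6 probe sets), lower on every probe set.

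PROX1 was the lowest of the 8 factors, at 1.59-fold lower with CD24 shRNA, and CEBPA, CEBPB, FOXA3 and ONECUT1 followed at 1.38-fold, 1.34-fold, 1.33-fold and 1.29-fold lower. ONECUT2 was 1.12-fold lower, FOXA2 lay near 0, and FOXA1 was 1.10-fold higher. A log2 difference of 0.32 or more below 0 was thus seen in 5 of the 8, and in 8.65% of all genes, while 0.32 or more above 0 was seen in none of the 8 and in 9.16% of all genes. Members and thresholds were chosen with earlier results of these data known, and 1.5-fold was the main threshold. The shares of all genes therefore describe the counts and do not test them. PROX1 alone was at least 1.5-fold lower, where 2.38% of all genes were, and no member was 1.5-fold higher (2.63% of all genes) or 2-fold lower (0.485%) or higher (0.632%). The median over the 8 was -0.39, against 0 over all genes, and 7 of 8 lay below 0, as did 47.5% of all genes. The count depends on the scaling of the arrays, described below, which left between 1 and 5 of the 8 at least 0.32 below 0.

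**Figure D1:**
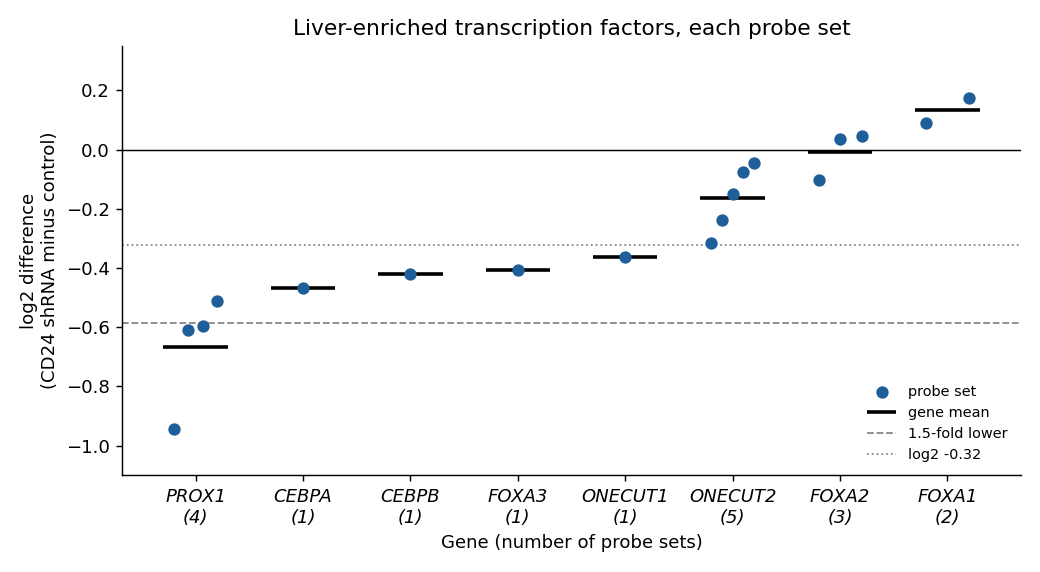
Log2 difference (CD24 shRNA minus control) of each of the 18 probe sets (points) and the gene mean (black bars), by gene, with the number of probe sets in brackets, a dashed line at 1.5-fold lower and a dotted line 0.32 below 0. All 4 PROX1 points lie between -0.95 and -0.51, below every point of the other genes.

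PROX1 was measured by 4 probe sets, and each was lower with CD24 shRNA. Its centred values averaged 0.33 in the control and -0.33 with CD24 shRNA. Probe set 228656_at had the largest difference, -0.95, followed by 242119_at at -0.61, 229376_at at -0.60 and 207401_at at -0.51. The gene mean was -0.67 ± 0.19 (SD, 4 probe sets). The 3 smaller differences lay close together, and without 228656_at the mean no longer reached 1.5-fold, at -0.57. Of 19775 genes, 1.70% had a mean at or below that of PROX1. Among the 1393 genes with 4 probe sets, 11 (0.79%), PROX1 among them, had every probe set 0.32 or more below 0.

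The C/EBP members were alike in size on 1 probe set each. CEBPA (204039_at) had a centred value of 0.23 in the control and -0.23 with CD24 shRNA, a difference of -0.47. CEBPB (212501_at) had 0.21 and -0.21, a difference of -0.42. CEBPA minus CEBPB was -0.05, well under the pooled SD between probe sets in size. At or below CEBPA lay 4.04% of all genes, and 4.95% lay at or below CEBPB. Single probe sets scatter more than means, and among the 9252 genes with 1 probe set 10.6% lay 0.32 or more below 0.

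Of the FOXA members, FOXA3 was lower and the other two were not. FOXA3 (228463_at, 1 probe set) had 0.20 in the control and -0.20 with CD24 shRNA, a difference of -0.41. FOXA1 was higher on each of its 2 probe sets, at 0.09 and 0.17, with a mean of 0.13 ± 0.06 (SD, 2 probe sets). FOXA2 was split, at -0.10 on 40284_at and at 0.04 on each of 210103_s_at and 214312_at, with a mean of -0.01 ± 0.08 (SD, 3 probe sets) that turned above 0 when the arrays were scaled on controls. FOXA3 minus FOXA1 was -0.54 and FOXA3 minus FOXA2 was -0.40, in size 2.01 and 1.49 times the pooled SD between probe sets. These multiples give a scale only, since that SD is not the error of a difference between gene means. Because FOXA3 rests on 1 probe set on 1 array per group, this difference within the family was not tested.

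ONECUT1 (210745_at, 1 probe set) had 0.18 in the control and -0.18 with CD24 shRNA, a difference of -0.36. ONECUT2 was lower on all 5 of its probe sets as deposited, but by little, and its mean turned above 0 when scaled on the poly-A controls: 207676_at lay at -0.32, 233441_at at -0.24, 233446_at at -0.15, 239911_at at -0.08 and 230271_at at -0.05. Its mean was -0.16 ± 0.11 (SD, 5 probe sets). ONECUT1 minus ONECUT2 was -0.20, in size smaller than the pooled SD. ONECUT1 is thus the member just past the limit of 0.32 below 0 and ONECUT2 the nearest one not past it, with its probe set 207676_at just short of the limit.

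In order from PROX1 to FOXA1, each member differed from the next by 0.01 to 0.20, always less than the pooled SD of 0.27. The pooled SD is not the error of a gap between gene means, so it does not test the order. Without replicate arrays the order of neighbours is given no weight. The ends of the order, PROX1 and FOXA1, lay on opposite sides of 0 on all of their 6 probe sets.

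**Figure D2:**
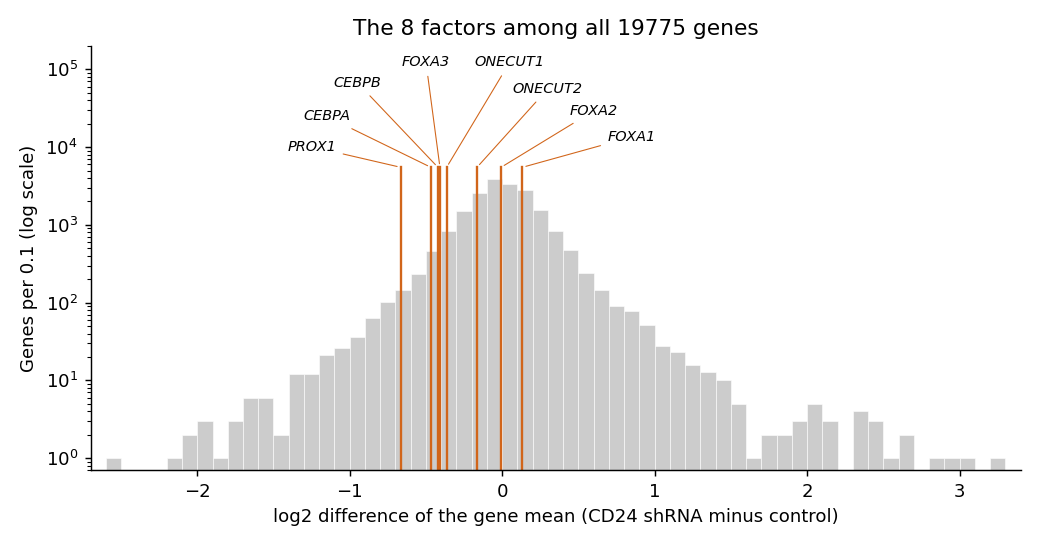
Number of genes (log axis) by log2 difference of the gene mean in steps of 0.1, with the 8 factors as vertical lines. PROX1 at -0.67, CEBPA, CEBPB, FOXA3 and ONECUT1 stand on the lower flank of the distribution, and FOXA2 and FOXA1 near its centre.

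The level of a probe set was not in the table, and only its digits gave a bound. The number steps place the dimmer array below a log2 value of 8 for 7 of the 18 member probe sets: both of FOXA1, 2 of FOXA2, 2 of ONECUT2 and 1 of PROX1. A single member probe set, 214312_at of FOXA2, was placed below 4, near the background, as were 10451 of the 41091 probe sets used. The single probe sets of CEBPA, CEBPB, FOXA3 and ONECUT1 were not placed below 8, which sets no lower bound on their level. Differences also came in repeated sizes, equal to within 1e-06, for 67.4% of probe sets and for 7 of the 18 member probe sets. The FOXA2 probe set 214312_at shared the size of its difference with 98 other probe sets and 233441_at of ONECUT2 with 62. Larger differences were also among them: 207401_at of PROX1, 228463_at of FOXA3 and 210745_at of ONECUT1 each shared theirs with 1 other.

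The direction of the smaller differences depends on how the arrays are scaled. The hybridisation controls, bacterial and phage transcripts added to the labelled sample, had a median difference of -0.11 over 18 probe sets, and scaling on them adds 0.11 to every gene. On that scale PROX1 lay at -0.55, CEBPA at -0.36, CEBPB at -0.31, FOXA3 at -0.30, ONECUT1 at -0.25 and ONECUT2 at -0.05, while FOXA2 at 0.10 and FOXA1 at 0.24 lay above 0. PROX1 and CEBPA then lay 0.32 or more below 0 (4.71% of all genes) and none was 1.5-fold lower. The poly-A control probe sets, for bacterial transcripts that can be added to the RNA before labelling, had a median of -0.21 over 24 probe sets. Their values ran from -0.50 to 0.39, with an SD of 0.26, against 0.09 for the hybridisation controls. The labels do not say that the poly-A transcripts were added. With 0.21 added, PROX1 at -0.45 was the only member 0.32 or more below 0 (2.88% of all genes), and ONECUT2 lay at 0.05. FOXA1, at 0.35, was past 0.32 above 0, on a scale where the median over all genes was itself 0.21. Only 16.2% of all genes lay below 0 on that scale. PROX1, CEBPA, CEBPB, FOXA3 and ONECUT1 stayed below 0 on each of the 3 scales, and since each scaling shifts all genes alike their distance from the median gene did not move.

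**Figure D3:**
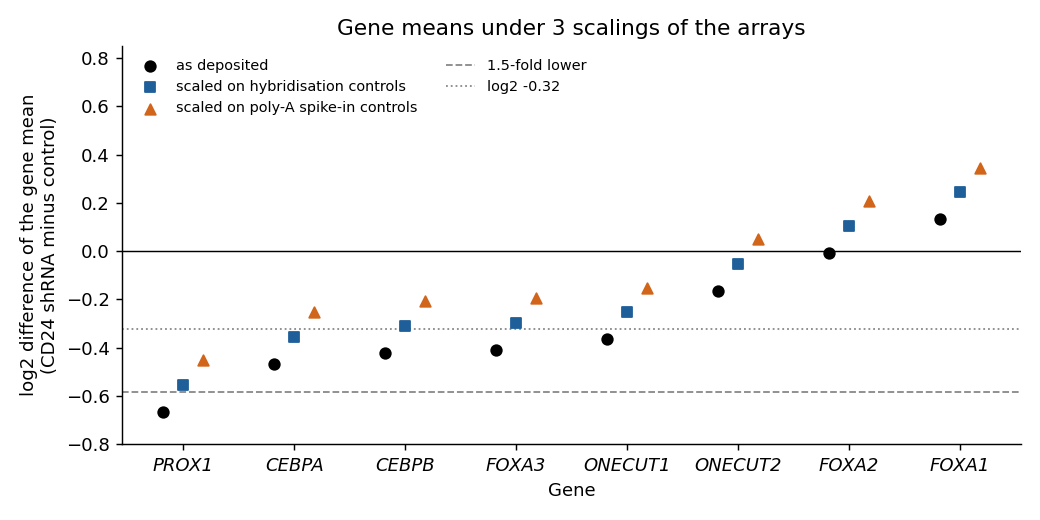
Log2 difference of the gene mean (CD24 shRNA minus control) of each factor as deposited (circles), scaled on hybridisation controls (squares) and scaled on poly-A spike-in controls (triangles). PROX1 lies at -0.67, -0.55 and -0.45, and ONECUT2 and FOXA2 cross 0.

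Other liver-enriched transcription factors spread widely, more of them below 0 than above. Of 18 measured, 12 lay below 0, 2 were at least 1.5-fold lower and none 1.5-fold higher, with a median of -0.12. Scaled on the poly-A controls, 1 was lower and 1 higher, with a median of 0.09. NR0B2, a nuclear receptor without a DNA-binding domain that represses bile acid synthesis, was the lowest at -1.34 (1 probe set). HLF, a basic leucine zipper factor of the circadian PAR family, had a difference of -0.73 ± 0.09 (SD, 3 probe sets), with all 3 between -0.82 and -0.65. The close relatives ONECUT3 and PROX2 lay at -0.12 and 0, on 1 probe set each. The remaining genes of this list were not analysed here.

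Other genes listed by a C/EBP name or as dimer partners lay on both sides of 0, unlike CEBPA and CEBPB. They include CEBPZ, at -0.19 (1 probe set), which is counted here by name. Of 10 genes, 6 lay above 0 and none passed 1.5-fold either way (median 0.10). CEBPE, a myeloid family member, had the largest difference, 0.42 on 1 probe set placed near the background. CEBPD, which like CEBPB responds to inflammatory signals, lay at 0.40 ± 0.34 (SD, 2 probe sets), at 0.65 and 0.16. ATF4, the stress-response factor, lay at -0.35 (1 probe set), and CEBPG at -0.18 ± 0.16 (SD, 2 probe sets).

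Among 13 cofactors and proteins that lead to degradation of the members, 5 lay below 0 and 7 above (median 0.13). TRIB3, a pseudokinase of the Tribbles family, was the only one at least 1.5-fold lower, at -0.62 ± 0.09 (SD, 2 probe sets), and no longer passed when the arrays were scaled on controls or without its largest probe set. TRIB1 and TRIB2 are the Tribbles proteins known to bring C/EBP alpha to the ubiquitin ligase COP1. TRIB1 lay at 0.13 ± 0.39 (SD, 3 probe sets) and COP1 at 0.36 ± 0.01 (SD, 2 probe sets). TRIB2 lay at 0.32 ± 0.13 (SD), with both of its 2 probe sets placed near the background. Groucho corepressors, which FOXA factors can recruit, split. TLE2 lay at -0.44 ± 0.11 (SD, 2 probe sets) and TLE3 at -0.39 ± 0.17 (SD, 4 probe sets), each with all probe sets below 0. TLE4 lay at 0.18 ± 0.10 (SD, 5 probe sets, 2 of them placed below 4) with all 5 above. TLE1 lay at 0.14 ± 0.26 (SD, 5 probe sets) with 2 of the 5 below 0. LCOR and HDAC3, corepressors listed with PROX1, lay at -0.01 and 0.

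Genes that C/EBP factors are known to activate in liver were the list with the most members past 1.5-fold. Of 15 measured, 8 were at least 1.5-fold lower and 1 higher, with a median of -0.62, where 2.38% and 2.63% of all genes were. SERPINA3, the protease inhibitor alpha-1-antichymotrypsin, lay at -1.95, C3, the central complement component, at -1.30, and HP, haptoglobin, at -1.19, each on 1 probe set. The other 5 were PCK1, a gluconeogenic enzyme, at -0.90, LCN2, an iron-carrier binding protein, at -0.86, HAMP, the iron hormone hepcidin, at -0.69, ORM1, an acute-phase plasma protein, at -0.62, and FABP1, the liver fatty acid-binding protein, at -0.64 ± 0.04 (SD, 2 probe sets). CPS1, which makes carbamoyl phosphate for urea, was higher at 0.96 ± 0.42 (SD, 2 probe sets). When the arrays were scaled on the hybridisation or the poly-A controls, 5 of the 15 were at least 1.5-fold lower, where 1.53% and 0.986% of all genes were. Many of these genes also respond to STAT3 and NF-kB, and the list was written with earlier results for several of its genes known, so it is no independent evidence of a direction.

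Genes listed under FOXA factors differed less. Of 12 measured, 8 lay below 0, with a median of -0.16, and PCK1, which the C/EBP list also holds, was the only one at least 1.5-fold lower. TTR, the thyroid hormone carrier transthyretin, had the largest difference upward, at 0.40 (1 probe set). Of the 8 genes listed under FOXA alone none was 1.5-fold lower (median -0.13), against 7 of the 11 listed under C/EBP alone (median -0.64). The lists are short and were not compared by a test. Taking the largest probe set of each gene instead of the mean put 5 of the 12 FOXA genes past 1.5-fold lower, and under that rule 5.55% of all genes were lower, more than with the mean. IGFBP1, an insulin-regulated binding protein, was among them, with -1.28 and 0.36 on its 2 probe sets, the latter placed below 4. Without probe sets placed below 4, 2 of the 10 FOXA genes left, PCK1 and IGFBP1, were at least 1.5-fold lower, as were 2.87% of all genes. IGFBP1 is listed under FOXA alone, so the absence of lower genes there depends on averaging in its probe set near the background.

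Genes listed under ONECUT1 or with PROX1 were in part near the background: 6 of 10 probe sets of the ONECUT1 list and 7 of 23 of the PROX1 list were placed below 4, so their values are weakly measured. None of the 5 ONECUT1 genes with a probe set passed 1.5-fold. Their median of -0.01 is the value of FOXA2, itself one of the 8 factors, and TTR was again the largest. None of the 9 PROX1 genes passed it either (median 0). ITGA9, a lymphatic integrin, had the largest difference, 0.47 ± 0.72 (SD, 4 probe sets), from 1 probe set at 1.52. CYP7A1, the rate-limiting enzyme of bile acid synthesis that PROX1 is known to repress, lay at -0.21 on 1 probe set near the background.

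**Figure D4:**
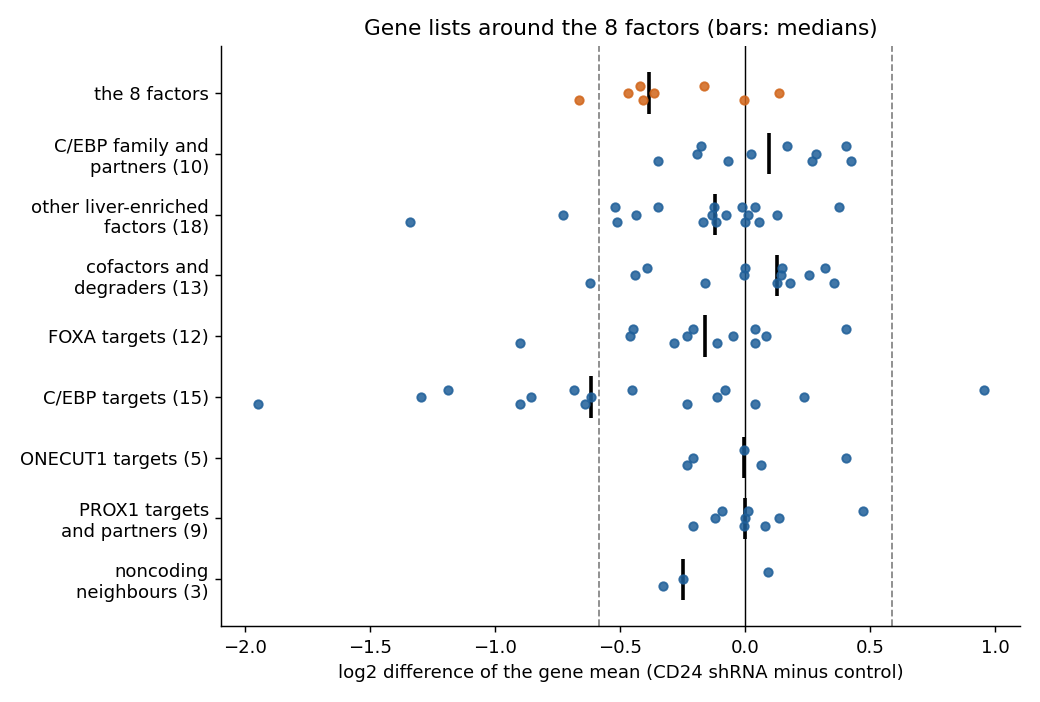
Log2 difference of the gene mean (CD24 shRNA minus control) of each measured gene (points) in the 8 fixed lists and of the 8 factors, with the median of each list (black bars) and dashed lines at 1.5-fold. The C/EBP target list has its median at -0.62, and the other lists have medians between -0.25 and 0.13.

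The nearest genes with a value on each side of the members in the RefSeq gene order lay on both sides of 0. Genes without a probe set of their own were passed over, so a neighbour named here need not be the adjacent gene. Of 16 neighbours with a probe set, 9 lay below 0 and 6 above (median -0.10), and 1 was at least 1.5-fold lower. That gene was SLC7A10, an amino acid transporter next to CEBPA, at -1.34 on 1 probe set. On its other side CEBPA has the divergent transcript CEBPA-DT, which lay at 0.09 (1 probe set). LINC00261, the noncoding RNA beside FOXA2, lay at -0.33 (1 probe set), where FOXA2 lay at -0.01. PROX1-AS1, the antisense RNA of PROX1, lay at -0.25 on 1 probe set near the background, and SMYD2, on the other side of PROX1, at -0.12 ± 0.41 (SD, 3 probe sets). SNAI1, the epithelial-mesenchymal transition factor beside CEBPB, lay at 0.15 (1 probe set). SYMPK and IRF2BP1, which flank FOXA3, lay at -0.13 and -0.11. Around ONECUT1, ATOSA lay at 0.07 and WDR72 at -0.23. Around ONECUT2, ST8SIA3 lay at 0.02 and FECH at -0.09, and around FOXA1, MIPOL1 lay at 0.05 and TTC6 at -0.23. SSTR4, the other neighbour of FOXA2, lay at 0.05, and PELATON, beside CEBPB, at 0.

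The samples were cultures of the Huh7 line and not liver tissue, so markers of liver cell types are given as transcripts and not as counts of such cells. They gave these values beside the lower factors. Of 10 hepatocyte markers, 7 lay below 0 (median -0.10), with AHSG, fetuin-A, at -0.94 and FGB, the fibrinogen beta chain, at 0.59, and 2 of their 25 probe sets were placed below 4. Of 9 stellate cell and fibroblast markers, 7 lay above 0 (median 0.28), and 12 of 32 probe sets were placed below 4. The mean of TAGLN, an actin-binding protein of smooth muscle, was 2.67 ± 2.27 (SD, 3 probe sets, from 0.05 to 4.02), larger in size than that of CD24 or of any of the 8 factors. COL3A1, a fibrillar collagen, lay at 2.35 ± 1.77 (SD, 5 probe sets, 4 of them placed below 4) and LUM, the matrix proteoglycan lumican, at 1.12 ± 1.41 (SD, 2 probe sets, both placed below 4). Of 8 endothelial markers, which matter for PROX1 as a lymphatic factor, 6 lay below 0 (median -0.07), none passed 1.5-fold, and 11 of 20 probe sets were placed below 4. Of 6 cholangiocyte markers 4 lay above 0 (median 0.08), with SOX9 at -0.79 and KRT19 at 0.63, and of 4 macrophage markers 1 did (median -0.11). Their part in the values of the 8 factors was not tested. Fewer cells with a transcript and less transcript per cell cannot be told apart in these bulk samples.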

How the data were processed

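Gene expression of 2 Huh7 cultures, 1 per group, was read on 1 Affymetrix array each. The deposited log2 values were made with RMA, as the submitters' processing notes name it, per the labels (background correction, quantile normalisation and summary of each probe set's probes), with software and version not given in the sources used here. The deposited log2 values of each probe set sum to 0 within 1e-06 over its arrays, so only their difference is known. The log base and the direction are not written in the table; they follow from RMA and from CD24. Probe sets were named through GEO's platform annotation: of 54675, 41091 named 1 gene and were used, 1801 named several, 11721 others none, and 62 control probe sets were left out.

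Log2 differences were averaged over the probe sets of each gene. Genes were counted at 1.5-fold, with 2-fold and a log2 size of 0.32 beside it. Precision is limited by 1 array per group. Bounds on level came from the digits, since single-precision steps are finer below 8 and finer again below 4. Members, lists and thresholds were chosen with earlier results of these data known. Named were all members, the neighbours, CD24, and from each of 8 lists up to 3 one-signed genes each way past 1.5-fold, or else the largest; other genes were named after their values were seen. Alternatives covered the combination of probe sets, filters, centring, control scaling and thresholds. Calculations used Python 3.11.15, pandas 2.3.3 and numpy 2.4.6 and were tested on simulated data. The gene differences planted there were larger than those of the members, so that test says nothing of differences of their size. Promoters came from RefSeq (GRCh38.p14).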

Additional observations from a re-analysis of the deposited data

How the results depend on the processing

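The number of members at least 1.5-fold lower, 1 as reported, was 0 without the largest probe set of each gene, 0 when scaled on the hybridisation controls, 0 when scaled on the poly-A controls (an alternative chosen after seeing the data), 0 at 2-fold and 5 at a log2 size of 0.32. The gene in question is PROX1, at -0.57 without its largest probe set and at -0.55 and -0.45 on the 2 control scales. Dropping its lowest probe set can only raise its mean, and the 2-fold and 0.32 settings move the threshold itself. The control shifts apply to every gene, but their size was measured on the arrays and was not fixed in advance. The number at least 1.5-fold higher was 0 under every alternative run. The median over the 8 members was -0.39, except at -0.28 and -0.17 when scaled on the hybridisation and poly-A controls. It lies midway between FOXA3 and ONECUT1, so only those scalings, which add a constant, could move it, and the other alternatives are no check on it. CEBPA, CEBPB, FOXA3 and ONECUT1, on 1 probe set each, could not move when probe sets were combined in another way, and median centring moved no gene because the median was 0, so these alternatives say nothing of their stability. Scaling on the poly-A controls put 1 gene of each of the lists under FOXA, ONECUT1 and PROX1 and 2 of the C/EBP family past 1.5-fold higher, where 7.08% of all genes then were. No paired analysis was possible because each group has 1 array, and for the same reason no replicate could be left out. With 1 array per group, no difference on a single probe set, of any size, can be told from the spread between cultures. The pooled SD of 0.27 describes scatter between probe sets and gives no such limit.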

Other observations

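Serum amyloid A, an acute-phase protein that C/EBP beta is known to activate, had no probe set of a single gene, but 2 probe sets named SAA1 and SAA2 together or with a read-through gene. They lay at -0.75 and -0.50, on the lower side with most of the C/EBP target list. They belong to no count in the report.

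The array's own controls for RNA quality did not move alike. The ACTB controls lay at 0.44 at the 3′ end, 0.65 in the middle and 1.19 at the 5′ end, whereas the GAPDH controls lay at -0.19, -0.17 and -0.28. Their part in the values of the 8 factors was not tested.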
